A study of Mus musculus with 8 samples.

Results

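The nuclear genes for the protein subunits of the mitochondrial respiratory chain and ATP synthase were followed in mouse aortic smooth muscle cells (MASMCs) with and without Hint1. A gene was included when its symbol was that of a subunit of NADH dehydrogenase (complex I), succinate dehydrogenase (complex II), the cytochrome bc1 complex (complex III), cytochrome c oxidase (complex IV) or ATP synthase (complex V), or of cytochrome c. The rule used symbols and no measured value, and found 85 of the 18533 genes in the count files: 36 for complex I, 4 for complex II, 9 for complex III, 1 for cytochrome c, 18 for complex IV and 17 for complex V. Ndufa4, first named as a complex I subunit, was placed with complex IV, where the protein is now known to sit. RNA-Seq was done on 8 samples, 4 of WT and 4 of Hint1-/- MASMCs. All 8 were treated with the growth factor PDGF-BB at 20 ng/mL for 24 hours, so both genotypes carried the treatment and no untreated cells were analysed here. The cells were primary cultures from aortas, freed of adventitia and endothelium, of male mice aged 4 to 6 weeks. Hint1 was deleted in the whole body of the Hint1-/- mice, which came from another laboratory. The paper states, for its mice in general, that littermates were compared. Whether the 4 replicates of a genotype were separate mice or cultures is not given in the sources used here, so p-values measure the spread between these samples, which may be technical.

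Oxidative phosphorylation burns reduced cofactors to make ATP. Complexes I and II pass electrons from NADH and succinate to ubiquinone, complex III passes them to cytochrome c, and complex IV hands them to oxygen, while complexes I, III and IV pump the protons whose return drives complex V. Most subunits come from nuclear genes and are imported, a few of the most hydrophobic ones are made inside the mitochondrion, and several complex IV subunits come in a common and a tissue-restricted or oxygen-responsive isoform. Smooth muscle cells that leave the contractile state to divide and migrate are known to alter their energy metabolism along with their contractile proteins.

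The libraries were equally deep, with 20778077 to 20888041 estimated counts each, and no pair of replicates differed by as little as sampling noise. Hint1 itself had 2272, 2336, 2364 and 2301 counts in WT replicates 1 to 4 and 713, 748, 778 and 715 in Hint1-/- replicates 1 to 4, a log2 fold change of -1.64 in the direction of the labels, with counts left in all 4 knockout samples. Of 5 smooth muscle markers tested, 3 were lower (Acta2, Cnn1 and Myh11) and 1 was higher (Smtn) in Hint1-/- cells at adjusted p under 0.05, and the summed level of the list was 1332 to 1452 CPM, the count divided by the scaled library size, in WT and 1102 to 1193 in Hint1-/- samples. Markers of other cells were present: macrophage markers summed to 1887 to 2186 CPM in WT and 1528 to 1623 in Hint1-/- samples (5 of 5 tested lower), fibroblast markers to 4978 to 5466 and 5514 to 5906 (3 higher and 2 lower of 6), glial markers to 38.2 to 43.6 and 8.51 to 10.8 (4 of 5 lower) and cardiac muscle markers to 1.91 to 2.67 and 6.98 to 11.6 (4 of 5 tested higher, of 11 listed). Of all 13535 genes tested, 10.2% were called lower and 11.2% higher in Hint1-/- cells at adjusted p under 0.05. C1qa, the macrophage marker that was not tested, had 30 counts in all in WT and 40 in Hint1-/- samples. Among the fibroblast markers, Dcn averaged 1112 CPM in WT and 1975 in Hint1-/- samples, while Col1a1 averaged 3687 and 3286. Of the 4 cardiac genes called, Myh6, Myh7 and Myl7 had 4, 4 and 0 counts in all in WT. They passed the filter on low counts through the Hint1-/- samples, so their calls rest on that group. Among those not tested, Actc1, Myl3 and Mb had 2, 0 and 0 counts in WT and 52, 16 and 2 in Hint1-/- samples. Myl2, Nppa and Pln had 7, 19 and 1 in WT and 7, 11 and 0 in Hint1-/- samples. Endothelial markers, at 4.15 to 6.36 and 3.89 to 6.28 CPM (4 of 6 tested), had no member called. Adipocyte markers, at 47.7 to 54.9 and 50.7 to 58.1 CPM, had only 1 of 6 tested, and it was not called. That 1 gene averaged 52.4 CPM over the samples and made up nearly all of the adipocyte sum. Skeletal muscle markers stayed at or below 1.16 CPM in every sample. No list had its markers at 0 in all samples, and in bulk RNA fewer cells of a type cannot be told apart from less RNA per cell. The part of these markers in the results on the subunit genes was not tested.

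Promoters are shown for 1 gene of each complex and for cytochrome c, because the nuclear respiratory factors NRF1 and GABP (an ETS factor) and the factor YY1 are known to act at promoters of such genes. The stretches are the 150 bases before the transcription start, 5' to 3' on the gene's strand, from RefSeq on GRCm38.p6: Ndufv3 at chr17:31519965-31520114 on the plus strand, Sdhb at chr4:140961121-140961270 on the plus strand, Uqcrh at chr4:116075071-116075220 on the minus strand, Cycs at chr6:50566570-50566719 on the minus strand, Cox6b1 at chr7:30626115-30626264 on the minus strand and Atp5g2 at chr15:102671048-102671197 on the minus strand. Capitals mark the NRF1 core GCGCATG, the ETS and GABP core CCGGAAG or the YY1 core ATGGCGG on either strand.
Ndufv3: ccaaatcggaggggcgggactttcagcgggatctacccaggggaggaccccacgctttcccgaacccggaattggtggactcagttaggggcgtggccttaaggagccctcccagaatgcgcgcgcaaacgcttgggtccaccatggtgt
Sdhb: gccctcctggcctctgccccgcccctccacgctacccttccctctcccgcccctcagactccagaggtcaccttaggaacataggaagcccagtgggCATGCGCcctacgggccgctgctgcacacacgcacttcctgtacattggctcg
Uqcrh: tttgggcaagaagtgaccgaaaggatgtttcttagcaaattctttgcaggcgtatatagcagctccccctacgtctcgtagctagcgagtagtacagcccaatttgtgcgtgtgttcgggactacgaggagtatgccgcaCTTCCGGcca
Cycs: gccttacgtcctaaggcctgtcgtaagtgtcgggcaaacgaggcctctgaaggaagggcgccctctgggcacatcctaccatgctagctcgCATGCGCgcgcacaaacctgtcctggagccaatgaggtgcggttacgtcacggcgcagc
Cox6b1: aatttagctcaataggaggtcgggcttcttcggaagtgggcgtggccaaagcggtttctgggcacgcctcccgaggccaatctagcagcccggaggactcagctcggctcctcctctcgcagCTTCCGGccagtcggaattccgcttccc
Atp5g2: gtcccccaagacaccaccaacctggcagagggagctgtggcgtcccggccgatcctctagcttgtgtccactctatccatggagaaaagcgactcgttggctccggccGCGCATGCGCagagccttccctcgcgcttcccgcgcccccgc
The NRF1 core lay 53 bases before the start of Sdhb (succinate dehydrogenase iron-sulfur subunit) and 59 bases before that of Cycs, on the other strand in both, and in Atp5g2 it lay on both strands in overlapping letters. The ETS and GABP core lay 10 bases before the start of Uqcrh (the hinge protein of complex III) and 28 bases before that of Cox6b1. None of the 3 cores was found in the Ndufv3 stretch. The genes shown were not drawn at random, so their stretches do not show how common the cores are. RefSeq windows of 250 bases before to 50 after the start were found for 70 of the 85 genes, in 75 windows. The NRF1 core was in 18.7% of these windows, against 6.44% of the windows of all genes tested and 3.91% of all windows of this length. The ETS and GABP core was in 22.7%, 16.3% and 8.86%, and the YY1 core in 14.7%, 7.40% and 4.06%, in the same order. Of the 11 genes that differed between genotypes below and had a window, each core was found in 2: the NRF1 core in Atp5l and Cycs, the ETS and GABP core in Atp5l and Cox6b1, and the YY1 core in Atp5b and Ndufa7. These matches describe the letters only.

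The subunit genes were abundant. They held 0.749, 0.728, 0.769 and 0.777% of all counts in WT replicates 1 to 4 and 0.732, 0.716, 0.726 and 0.693% in Hint1-/- replicates 1 to 4. The Hint1-/- shares lay lower on the whole, 0.717% ± 0.0170 (SD, n = 4) against 0.756% ± 0.0221 (SD, n = 4), but the genotypes overlapped, since WT replicate 2 was below Hint1-/- replicate 1. Per length, as CPM per kilobase of transcript averaged over the 8 samples, the median was 50.4 for complex I, 52.7 for complex II, 105 for complex III, 125 for complex IV and 136 for complex V, against 9.79 over all genes tested. The level of 10 genes is less certain because their transcript models differ more than 2-fold in length. Outside these, Atp5b, the catalytic beta subunit of ATP synthase, stood first at 470 CPM per kilobase, ahead of Cox8a at 379 and Cox6a1 at 353, both small complex IV subunits. Ndufs4, an accessory complex I subunit, was lowest among the common subunits with consistent models, at 19.4 CPM per kilobase.

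Few of these genes differed between the genotypes beyond the spread of the replicates, and 1 of them differed by more than 1.5-fold. Of the 85 genes, 83 passed the filter on low counts, and 1 of them, Cox4i2, differed at adjusted p under 0.05 with a fold change over 1.5, the thresholds of the study, compared with 2.83% of all 13535 genes tested (1.34% higher in Hint1-/- cells). Without a limit on the fold, 12 of 83 were called at adjusted p under 0.05 by edgeR's quasi-likelihood test with Benjamini-Hochberg adjustment over all genes, against 21.5% of all genes. Of the 12, 10 were lower in Hint1-/- cells (background 10.2%) and 2 were higher (background 11.2%), so the share of subunit genes called lower was close to that of all genes, and the share called higher was below it. The fitted log2 fold change (Hint1-/- over WT) was below 0 for 73 of the 83, against 49.9% of all genes, with a median of -0.06 against 0.00. The groups did not overlap for 9 subunit genes, where 23.0% of all genes had groups that did not overlap. For 77 of the 83 the 95% interval of the fold change lay within 1.25-fold either way, compared with 68.6% of all genes.

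**Figure D1:**
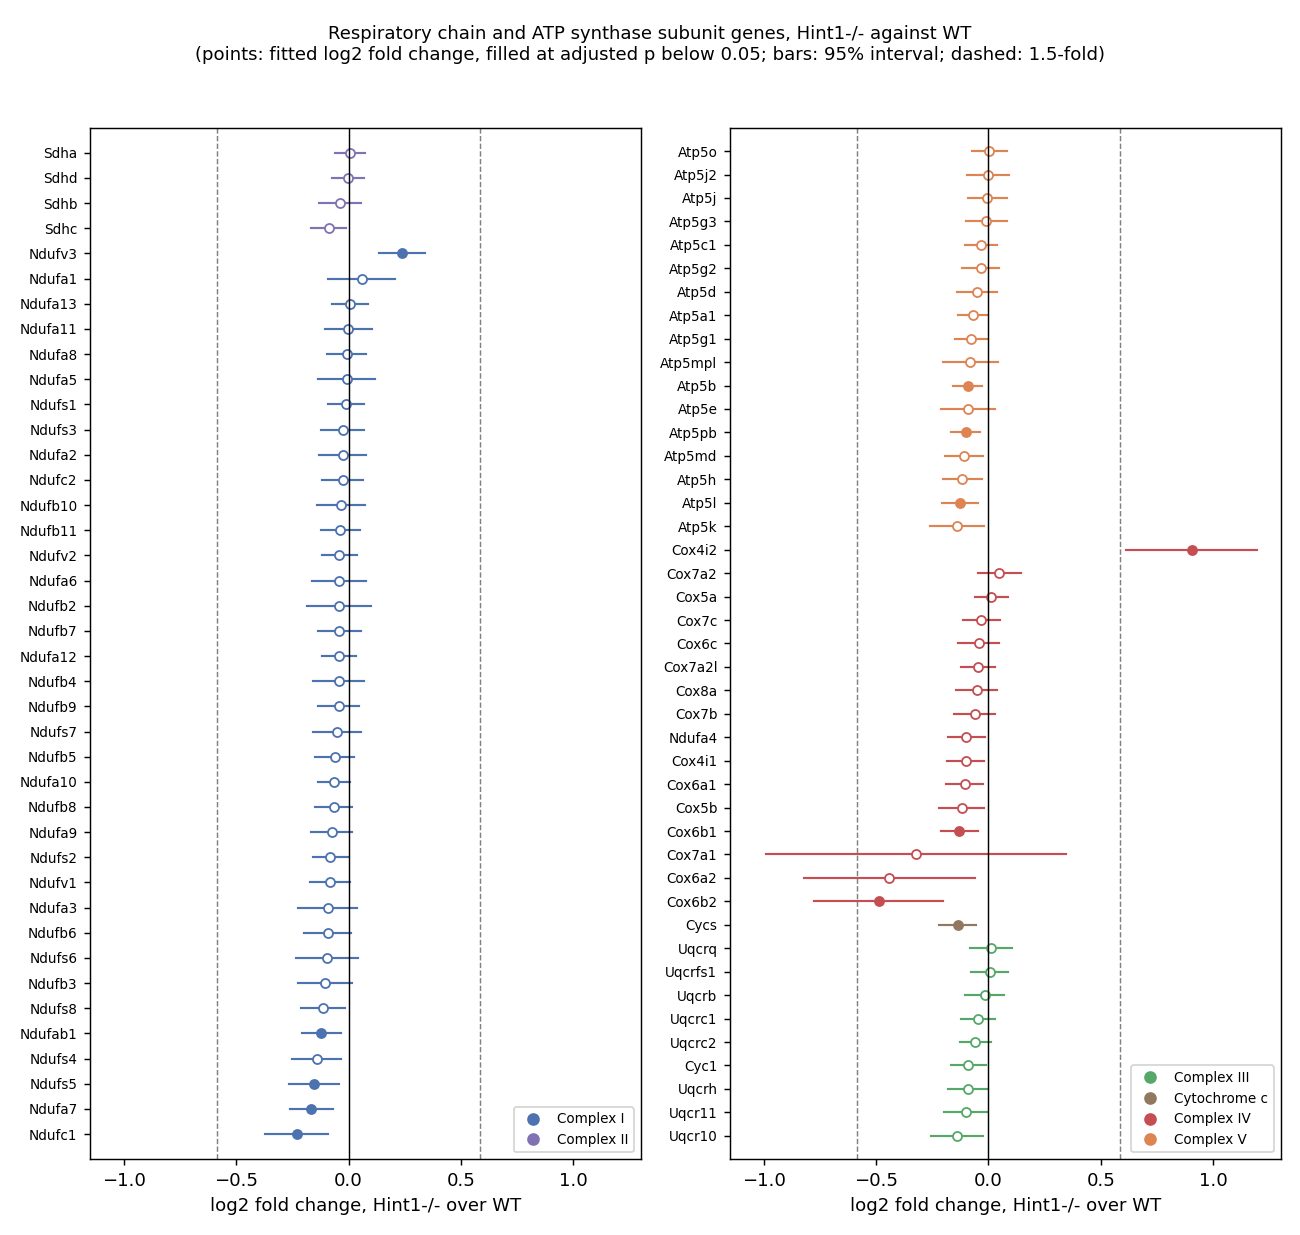
Fitted log2 fold change (x axis, Hint1-/- over WT) of the 83 subunit genes tested, grouped by complex and coloured by it; bars are 95% intervals, filled points have adjusted p under 0.05 and dashed lines mark 1.5-fold. Most points sit slightly left of 0, and Cox4i2 (0.90) and Ndufv3 (0.24) are the filled points to the right.

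The levels were uneven between samples of a genotype. Among the WT samples, replicate 2 had the lowest level for 59 of the 83 genes, and among the Hint1-/- samples replicate 4 had the lowest for 53. The median deviation from the WT mean over the 83 genes, on the log2 CPM scale, was -0.01, -0.07, 0.04 and 0.04 in WT replicates 1 to 4 and -0.02, -0.06, -0.05 and -0.11 in Hint1-/- replicates 1 to 4. Without Hint1-/- replicate 4 edgeR made 0 lower calls (13 subunit genes were lower at an unadjusted p under 0.05), and without WT replicate 2 there were 20 lower calls, while both higher calls were made whichever sample was left out. The calls over all genes, in either direction, also moved, from 2258 to 2909 as each sample was left out, against 2907 with all 8. In fits other than the main one, calls over all genes were not split by direction. Lower calls of subunit genes in those fits therefore have no background share beside them. Genes for ribosomal proteins sat at about the same place: the median log2 fold change was -0.05 over 78 mitochondrial ribosomal protein genes (7 lower and 0 higher) and -0.05 over 91 cytosolic ones (4 lower and 0 higher). Their median levels were 30.8 CPM (mitochondrial) and 384 CPM (cytosolic), against 64.0 CPM for the subunit genes and 26.8 CPM over all genes tested. Their median transcript lengths were 1224.5 and 835 bases. The subunit genes have a median transcript length of 730 bases against 2562 over all genes, and with each library's trend over transcript length and GC content removed their median log2 fold change was -0.04, with 8 lower calls.

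**Figure D2:**
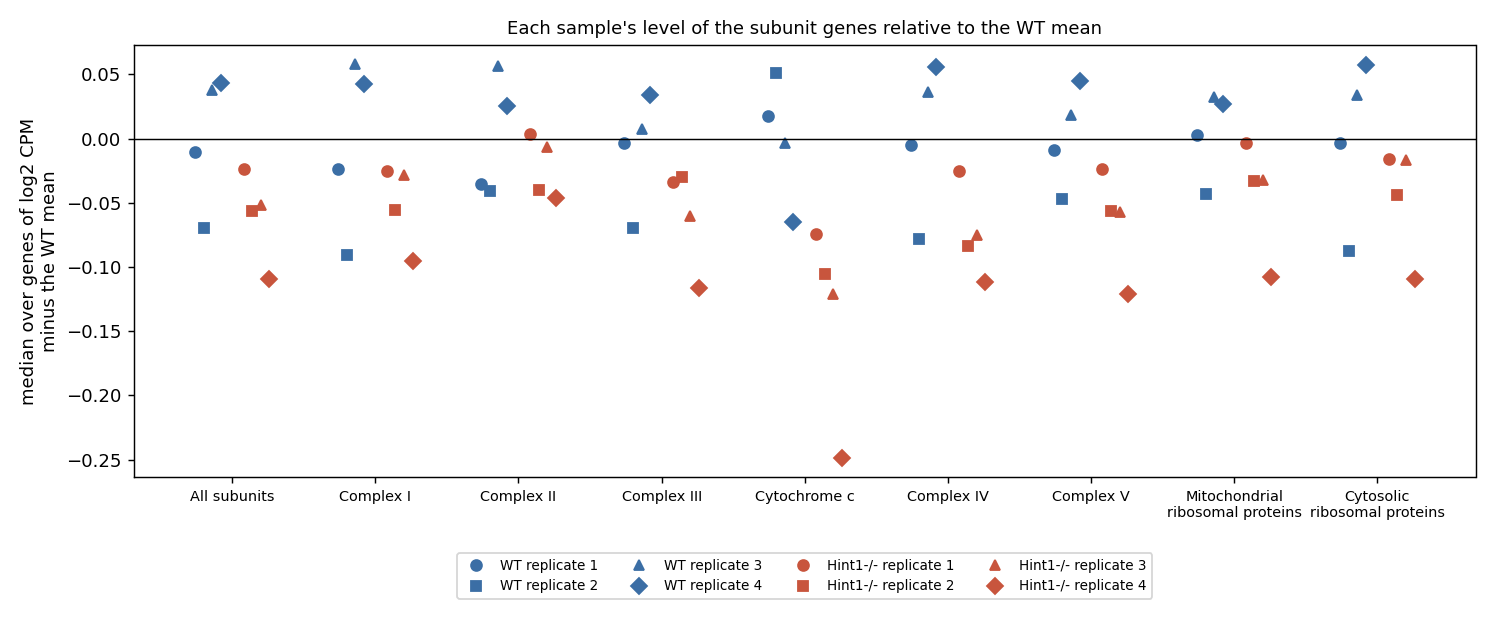
Median over genes of the log2 CPM minus the WT mean (y axis) in each of the 8 samples, for all subunit genes, each complex, cytochrome c (1 gene) and both groups of ribosomal protein genes; blue is WT, red is Hint1-/-, and the marker shape gives the replicate. Hint1-/- replicate 4 is lowest and WT replicate 2 is the lowest WT sample for all subunit genes.

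**Figure D3:**
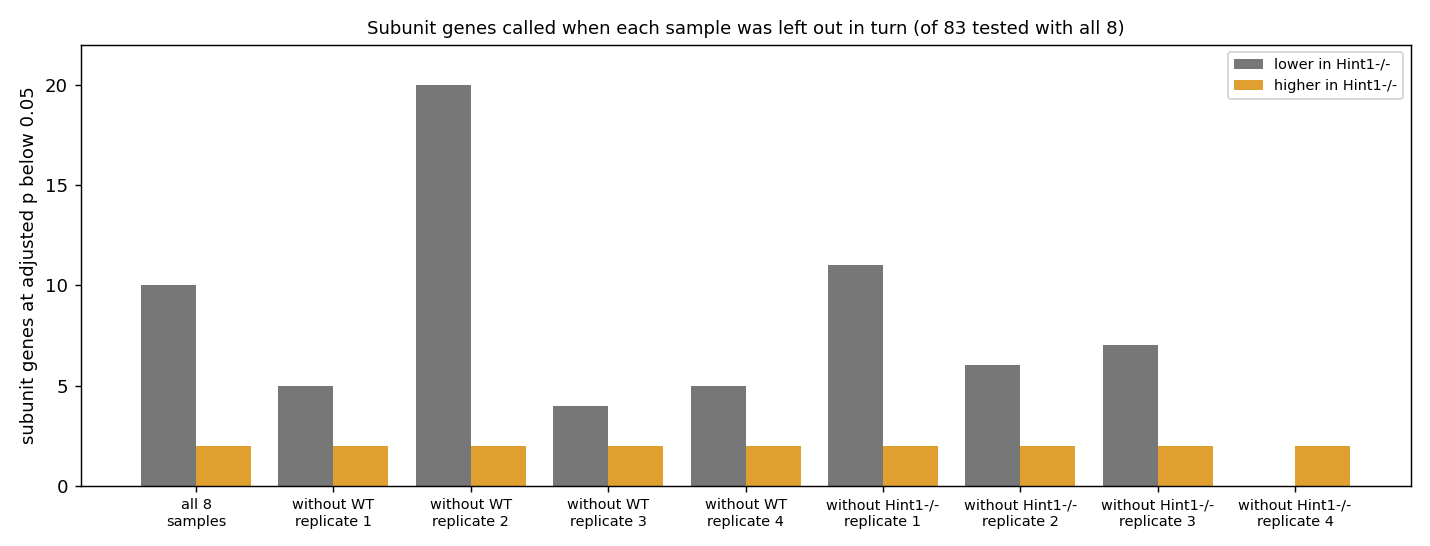
Number of subunit genes at adjusted p under 0.05 (y axis) with all 8 samples and with each sample left out in turn (x axis), lower in Hint1-/- in grey and higher in yellow. The lower calls run from 0 without Hint1-/- replicate 4 to 20 without WT replicate 2, and the higher calls stay at 2. Over all genes, calls in either direction run from 2258 to 2909 as each sample is left out.

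Complex I had 5 of its 36 genes called, 1 higher and 4 lower, with a median log2 fold change of -0.04. Ndufv3, at chr17:31520115-31531331 of mm10, encodes a small accessory subunit next to the NADH-binding site. Its level was 41.0, 38.3, 45.7 and 45.1 CPM in WT replicates 1 to 4 and 51.3, 49.6, 50.1 and 49.3 CPM in Hint1-/- replicates 1 to 4. All 4 Hint1-/- samples stood above all WT samples and close together, and Ndufv3 rose by a log2 fold change of 0.24 ± 0.049 (SE), with adjusted p = 0.00163 by edgeR's quasi-likelihood test. It was called under all 19 alternative settings. The 2 other flavoprotein genes of the NADH-oxidizing arm did not share this difference: Ndufv1, which binds NADH, had a log2 fold change of -0.08 (adjusted p = 0.181, edgeR) and Ndufv2 of -0.04 (adjusted p = 0.498, edgeR).

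The 4 complex I genes that fell were all accessory subunits. Ndufc1, of the membrane arm, was at 21.6, 18.8, 21.6 and 20.8 CPM in WT and 19.3, 17.3, 18.1 and 15.9 CPM in Hint1-/- samples, and fell by 0.23 on the log2 scale (adjusted p = 0.0181, edgeR). Ndufa7 was at 49.8, 48.5, 46.7 and 49.3 CPM in WT and 46.9, 41.6, 43.9 and 40.9 CPM in Hint1-/- samples, and fell by 0.16 (adjusted p = 0.0122, edgeR). In both genes one Hint1-/- sample, replicate 1, lay within the WT range. The Ndufc1 call was lost in 3 and the Ndufa7 call in 1 of the 19 alternative settings. Ndufs5, a subunit on the intermembrane side, fell by 0.16 (adjusted p = 0.0434, edgeR) and Ndufab1, the mitochondrial acyl carrier protein that also serves fatty acid synthesis, fell by 0.12 (adjusted p = 0.0456, edgeR). These 2 calls were the least stable of the complex, lost in 9 and 7 of the 19 alternative settings. None of the 7 core subunit genes, which hold the flavin and iron-sulfur centres or their docking sites, was called by edgeR, DESeq2 or limma-voom (2 had an unadjusted p under 0.05 in edgeR), and all 7 had an interval within 1.25-fold; Ndufs1, the largest core subunit, had a log2 fold change of -0.01 (95% interval -0.09 to 0.07). Ndufa3, an accessory subunit and the most abundant complex I gene per length, had a log2 fold change of -0.09 (adjusted p = 0.333, edgeR).

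Complex II, which is also an enzyme of the tricarboxylic acid cycle, had none of its 4 genes called by edgeR, DESeq2 or limma-voom, and 1, Sdhc, had an unadjusted p under 0.05 in edgeR. Sdha, the flavoprotein that oxidizes succinate, was at 158, 158, 161 and 158 CPM in WT and 162, 154, 161 and 161 CPM in Hint1-/- samples. The genotypes overlapped, and the 95% interval of the log2 fold change (0.01) ran from -0.06 to 0.07. Those of Sdhb, the iron-sulfur subunit, and of the membrane anchors Sdhc and Sdhd were -0.04, -0.09 and -0.00 (adjusted p = 0.581, 0.108 and 0.976, edgeR). Of these, Sdhc passed the threshold when WT replicate 2 was left out.

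Complex III had none of its 9 genes called by edgeR, DESeq2 or limma-voom, and 4 (Cyc1, Uqcrh, Uqcr10 and Uqcr11) had an unadjusted p under 0.05 in edgeR, all lower. The median log2 fold change was -0.06. The electron carriers Cyc1 (cytochrome c1) and Uqcrfs1 (the Rieske iron-sulfur protein) had log2 fold changes of -0.09 (adjusted p = 0.101, edgeR) and 0.01 (adjusted p = 0.934, edgeR). The core protein gene Uqcrc2 was at 107, 111, 109 and 110 CPM in WT and 107, 107, 102 and 105 CPM in Hint1-/- samples, groups that did not overlap by a narrow margin, with an adjusted p of 0.228 by edgeR's quasi-likelihood test. Among the 5 accessory genes the log2 fold changes ran from -0.14 for Uqcr10 (adjusted p = 0.0835, edgeR) to 0.01 for Uqcrq (adjusted p = 0.904, edgeR).

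Cycs, at chr6:50562563-50566538, encodes cytochrome c, the mobile carrier between complexes III and IV that also triggers caspase activation when released to the cytosol. It was at 181, 185, 178 and 171 CPM in WT and 170, 166, 164 and 150 CPM in Hint1-/- samples. The groups did not overlap, though WT replicate 4 and Hint1-/- replicate 1 lay close together, and Cycs fell by 0.14 on the log2 scale (SE 0.039, adjusted p = 0.0168, edgeR). The call was lost only without Hint1-/- replicate 4, where the other 18 alternative settings made it.

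Complex IV held the largest difference among the subunit genes. Cox4i2, at chr2:152754173-152765037, encodes the isoform of subunit 4 that is known from lung, vascular and oxygen-sensing cells and from hypoxia, in place of the common Cox4i1. It had 73, 42, 66 and 68 counts in WT replicates 1 to 4 and 111, 126, 116 and 110 counts in Hint1-/- replicates 1 to 4. The Hint1-/- samples all stood above the WT samples, WT replicate 2 being the lowest. Cox4i2 rose 1.87-fold (95% interval 1.53 to 2.29; log2 fold change 0.90 ± 0.14 SE, adjusted p = 9.16e-05, edgeR), and was called under all 19 alternative settings, with adjusted p from 4.8e-07 to 6.9e-04. Cox4i1 was at 188, 188, 200 and 204 CPM in WT and 183, 174, 194 and 176 CPM in Hint1-/- samples, overlapping ranges with a log2 fold change of -0.10 (adjusted p = 0.0757, edgeR). Per length, Cox4i2 made up 1.55% ± 0.335 (SD, n = 4) of the sum of both isoforms in WT and 3.09% ± 0.274 (SD, n = 4) in Hint1-/- cells, so Cox4i1 remained the main isoform in every sample.

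The other restricted isoforms were also low, and none was called higher in Hint1-/- cells. Cox6b2, the testis isoform of subunit 6b, was at 5.28, 3.81, 5.31 and 5.56 CPM in WT and 3.38, 4.30, 3.46 and 3.08 CPM in Hint1-/- samples. WT replicate 2 lay among the Hint1-/- values, and Cox6b2 fell by 0.49 on the log2 scale (adjusted p = 0.0153, edgeR). Without WT replicate 2 or Hint1-/- replicate 2 this difference passed 1.5-fold as well, and without Hint1-/- replicate 4 it was no longer called. The heart and skeletal muscle isoforms had 35, 39, 42 and 36 counts in WT and 22, 34, 29 and 26 in Hint1-/- samples for Cox6a2 (adjusted p = 0.0948, edgeR), 9 to 13 and 5 to 11 counts for Cox7a1 (adjusted p = 0.524, edgeR), and 1 count in all for each genotype for Cox8b. Cox6a2 groups did not overlap. With counts this low, whether these 3 isoforms followed the cardiac muscle markers was not tested. The testis isoform Cox7b2 had 1 count in all for each genotype, and neither it nor Cox8b was tested.

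**Figure D4:**
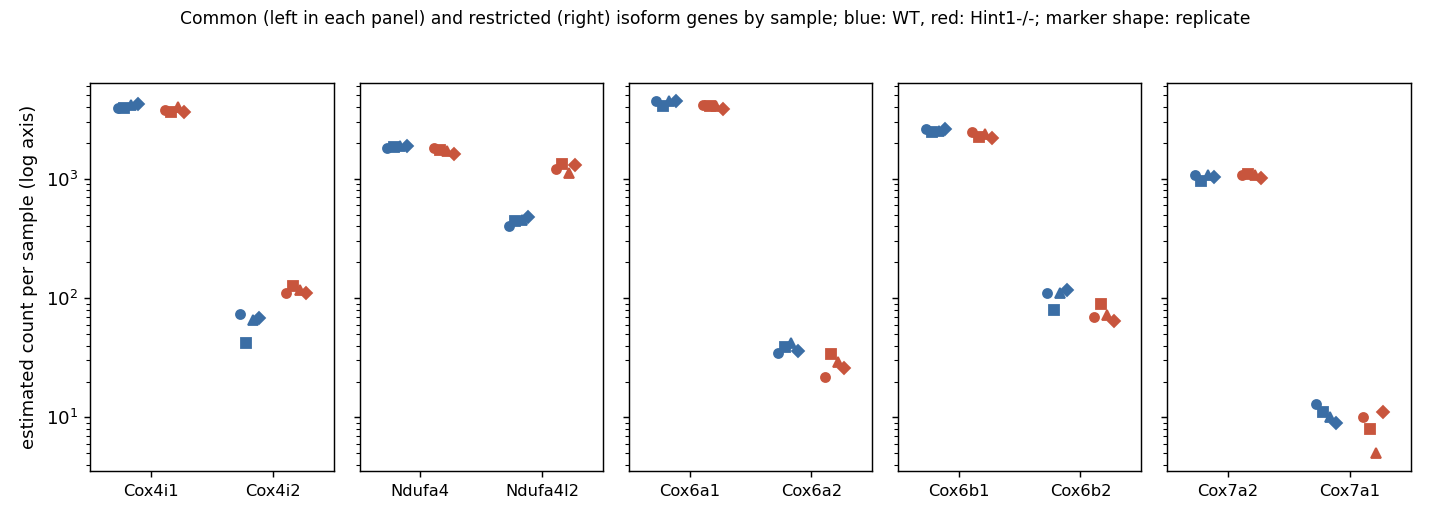
Estimated counts per sample (y axis, log scale) of common and restricted isoform genes, paired by subunit; blue is WT, red is Hint1-/-, and the marker shape gives the replicate. Cox4i2 and Ndufa4l2 lie higher in all Hint1-/- samples than in any WT sample, while Cox6a2, Cox6b2 and Cox7a1 do not.

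Of the 12 common complex IV genes, 1 was called. Cox6b1, which joins the monomers of the complex on its intermembrane side, was at 125, 118, 120 and 125 CPM in WT and 119, 109, 113 and 105 CPM in Hint1-/- samples, and fell by 0.13 on the log2 scale (adjusted p = 0.0223, edgeR). Hint1-/- replicate 1 lay within the WT range, and 5 of the 19 alternative settings lost the call. The others ran from -0.12 for Cox5b (adjusted p = 0.0892, edgeR) to 0.05 for Cox7a2 (adjusted p = 0.496, edgeR), and all 12 had an interval within 1.25-fold. The most abundant of them per length, Cox8a and Cox6a1, had log2 fold changes of -0.05 and -0.11 (adjusted p = 0.437 and 0.0625, edgeR). Cox7a2l, known for its part in joining complexes III and IV into supercomplexes, had a log2 fold change of -0.05 (adjusted p = 0.423, edgeR).

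Complex V had 3 of its 17 genes called, all lower, with a median log2 fold change of -0.08. Atp5b, the beta subunit of the F1 head where ATP is made, was at 924, 906, 942 and 947 CPM in WT and 897, 865, 874 and 855 CPM in Hint1-/- samples. The groups did not overlap, and Atp5b fell by 0.09 on the log2 scale (SE 0.031, adjusted p = 0.0416, edgeR), a call that 10 of the 19 alternative settings lost. Its partner Atp5a1, the alpha subunit, was at 467, 455, 476 and 489 CPM in WT and 449, 454, 453 and 442 CPM in Hint1-/- samples, also without overlap, with a log2 fold change of -0.07 (adjusted p = 0.129, edgeR). Atp5pb, subunit b of the peripheral stalk that holds the head still, was at 178, 179, 180 and 181 CPM in WT and 165, 170, 172 and 163 CPM in Hint1-/- samples. It fell by 0.10 (adjusted p = 0.0250, edgeR), with groups that did not overlap. Atp5l, subunit g at the interface of ATP synthase dimers, was at 113, 109, 111 and 113 CPM in WT and 110, 99.8, 99.9 and 98.9 CPM in Hint1-/- samples. It fell by 0.13 (adjusted p = 0.0230, edgeR), Hint1-/- replicate 1 lying within the WT range. The Atp5pb call was lost in 4 and the Atp5l call in 5 of the 19 alternative settings.

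Subunit c, which forms the rotating ring, is encoded by 3 genes whose mature proteins are the same. Their levels were 121 to 129 CPM in WT and 114 to 124 CPM in Hint1-/- samples for Atp5g1, 104 to 111 and 99.5 to 110 CPM for Atp5g2, and 99.5 to 116 and 103 to 112 CPM for Atp5g3. All 3 pairs of ranges overlapped, and none was called, with log2 fold changes of -0.08, -0.03 and -0.01. Closely related copies and processed pseudogenes exist for many of these genes, and 50-base reads can be shared among them.

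**Figure D5:**
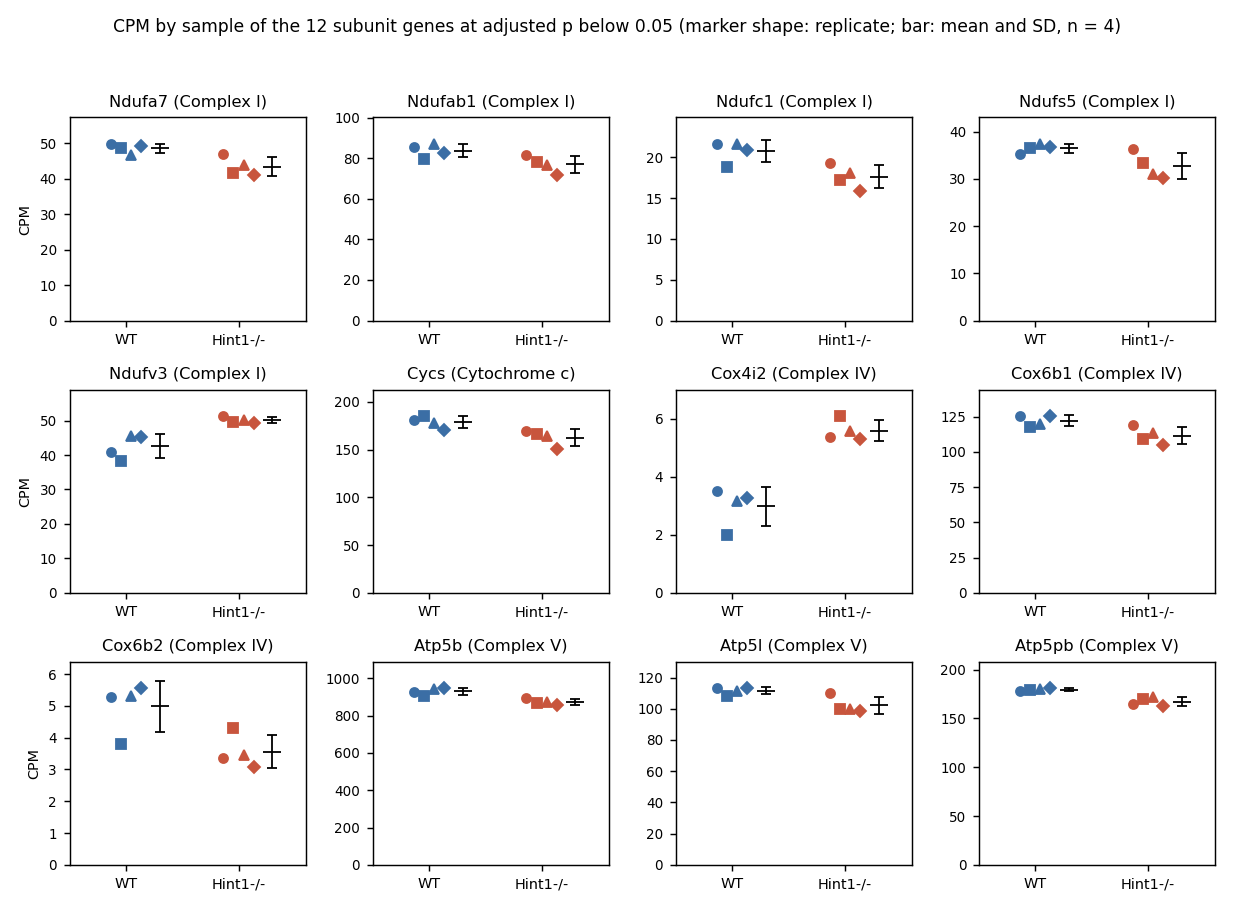
CPM (y axis, from 0) in each sample of the 12 subunit genes at adjusted p under 0.05; blue is WT, red is Hint1-/-, the marker shape gives the replicate and bars give the mean and SD of 4 samples. Apart from Cox6b2 (log2 fold change -0.49), the lower genes differ by little beside their level, and Cox4i2 shows the widest gap for its level.

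Genes that serve these complexes without being subunits by the symbol rule were taken by list. Ndufa4l2, a paralogue of Ndufa4 known as a hypoxia-induced gene that lowers complex I activity, had 405, 445, 448 and 480 counts in WT and 1202, 1322, 1121 and 1308 counts in Hint1-/- samples. Every Hint1-/- sample stood far above every WT sample, with a log2 fold change of 1.49 (adjusted p = 1.25e-12, edgeR), and per length Ndufa4l2 was 10.5% ± 0.518 (SD, n = 4) of the sum with Ndufa4 in WT and 26.2% ± 2.02 (SD, n = 4) in Hint1-/- cells. Ndufa4 had a log2 fold change of -0.10 (adjusted p = 0.0816, edgeR). Higd1a, another hypoxia-induced gene that binds complex IV, had 659 to 766 counts in WT and 987 to 1220 in Hint1-/- samples and rose by a log2 fold change of 0.67 (adjusted p = 2.72e-07, edgeR). Hif1a, the oxygen-regulated transcription factor, had 7240 to 7855 counts in WT and 9528 to 10391 in Hint1-/- samples and rose by 0.43 (adjusted p = 1.35e-07, edgeR). These data hold RNA levels only, and whether hypoxia had a part in these differences was not tested. Ucp2, a carrier of the inner membrane, fell by 0.28 (adjusted p = 8.85e-05, edgeR).

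Among 12 regulators of mitochondrial biogenesis tested, 2 rose (Hif1a and Myc) and 1 fell. The one that fell was Ppargc1b, a coactivator of respiratory genes, with 150, 151, 135 and 153 counts in WT and 104, 92, 109 and 114 in Hint1-/- samples (log2 fold change -0.48, adjusted p = 0.00112, edgeR). Its relative Ppargc1a, with 1 to 4 counts per sample, was not tested. The genes for the factors named with the promoters were not called: Nrf1 had a log2 fold change of 0.05 (adjusted p = 0.538, edgeR), Gabpa of -0.09 (adjusted p = 0.113, edgeR) and Yy1 of 0.02 (adjusted p = 0.710, edgeR). Those of Esrra, the estrogen-related receptor alpha, and Tfam, which packages and transcribes mitochondrial DNA, were -0.06 and 0.01 (adjusted p = 0.430 and 0.911, edgeR). Of 15 genes for maintenance and transcription of mitochondrial DNA, Tfb2m alone was called (log2 fold change -0.16, adjusted p = 0.0384, edgeR). That call was lost in 6 of the 19 alternative settings.

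Assembly factors of the 5 complexes had 2 of 51 called, both lower, with a median log2 fold change of -0.05. They were Tmem126a, which acts on complex I (-0.18, adjusted p = 0.00657, edgeR), and Cox17, the copper chaperone of complex IV (-0.14, adjusted p = 0.0368, edgeR). The Cox17 call was lost in 8 of the 19 alternative settings. Among 19 genes of pyruvate dehydrogenase and the tricarboxylic acid cycle, Suclg2, a succinyl-CoA ligase subunit, was called (-0.16, adjusted p = 0.00321, edgeR), and among 8 carriers and porins Slc25a3, the phosphate carrier that feeds ATP synthase, was called (-0.13, adjusted p = 0.00729, edgeR). In coenzyme Q synthesis 1 of 11 rose (Pdss2) and in protein import 1 of 19 fell (Tomm22). The Pdss2 call was lost in 5 and the Tomm22 call in 6 of the 19 alternative settings. Each of these lists held a smaller share of calls than the 21.5% of all genes, apart from the regulators (3 of 12) and the list of uncoupling proteins, alternative isoforms and inhibitors (3 of 7). The share of the regulators, 25%, was near that of all genes. The lists were chosen with earlier results of these data known, so neither share is a result about its list. Genes for the subunits made inside the mitochondrion were not found in the count files under the symbols listed, so they could not be analysed here.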

How the data were processed

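RNA-Seq was done on poly(A) RNA of 8 samples (BGISEQ-500, 50-base reads, mm10). The deposited files hold estimated counts per gene that the authors made from their reads; the study's methods name HISAT2, and the submitters' processing notes name Bowtie2, RSEM 1.3.1 and DESeq2 1.4.5. Counts were rounded to whole numbers and tested for 13535 genes in edgeR 4.0.16 (filterByExpr, TMM, quasi-likelihood test, Benjamini-Hochberg adjustment over all genes, 4 against 4, threshold 0.05, fold 1.5 from the study). CPM used TMM-scaled library sizes. Lengths are the median of a gene's basic protein-coding transcripts in GENCODE M21, and promoters are from RefSeq. The scripts were tested on simulated data with known changes. The biological coefficient of variation was 3.79%. Alternatives were DESeq2 1.42.0, limma-voom (limma 3.58.1), other scalings and filters, a length and GC correction, the replicate block and leaving out each sample. Named by rule were Hint1, genes past both thresholds, the 2 largest called changes each way per complex and per list, the most abundant gene of each complex, and set subunits, isoforms and regulators. Other genes (such as Ndufs5, Ndufab1, Ndufs4, Ndufv2, Uqcrc2, Uqcr10, Cox5b, Cox7b2, Uqcrh and Yy1) were named after their values were seen. Subunit genes and lists were chosen with earlier results of these data known.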

Additional observations from a re-analysis of the deposited data

Results flagged for a closer look

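In each genotype of 4 samples, 1 sample was called far from the other 3 when its gap to the nearest one, as a share of the group's range, exceeded Dixon's critical value. This held for 18 of 204 groups examined, where chance gives about 1 in 20, or 10.2. WT replicate 2 was the low sample for Ndufa3 (gap 0.952 of the range), Cox6a1 (0.875), Cox6b2 (0.862) and Atp5j2 (0.879), and it is also the WT sample with the lowest level for most subunit genes. Hint1-/- replicate 4 was low for Cox6a1 (0.849) and Atp5d (0.859) and high for Tfb2m (0.845). WT replicate 1 was low for Ndufv2 (0.880) and high for Cox17 (0.871), WT replicate 3 was high for Sdha (0.865) and low for Ppargc1b (0.853), and WT replicate 4 was high for Atp5j (0.862). Hint1-/- replicate 1 was low for Ndufs1 (0.852) and high for Atp5l (0.905), and Hint1-/- replicate 2 was low for Sdha (0.880) and high for Sdhc (0.866). Hint1-/- replicate 3 was high for Ndufa12 (0.831) and Nrf1 (0.880). Of these genes, Cox6b2, Atp5l, Ppargc1b, Cox17 and Tfb2m were called between the genotypes.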

How the results depend on the processing

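Over 19 alternatives the 2 higher calls (Cox4i2 and Ndufv3) were made every time, no called gene changed direction, and the count of all genes past both thresholds ran from 310 to 442. Without a limit on the fold, the count of all genes called ran from 2258 to 3273. With library sizes computed without the 20 most abundant genes, 18 subunit genes were called lower, and the calls were 7 in complex IV, 5 in complex V and 1 in complex III. Complex V also had 5 calls with upper-quartile normalization and with at least 10 counts in every sample, and complex I had 3 with DESeq2. Leaving out each sample gave 0 to 20 lower calls, 1 to 6 calls in complex I, 0 to 1 in complex II, 0 to 3 in complex III, 1 to 6 in complex IV, 0 to 5 in complex V and 1 to 2 genes past both thresholds. The lowest lower count, 0, was without Hint1-/- replicate 4. Samples of the same number in the 2 genotypes did not deviate together (correlations -0.05, 0.08, 0.01 and 0.02), so the numbers were not taken as pairs; with the replicate block, 12 subunit genes were called lower and 5 of complex IV were called. Calls over all genes were not split by direction in these alternatives, so the lower calls of subunit genes have no background share beside them. The cause of these shifts was not tested.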
